A study of Rattus norvegicus with 9 samples.

Results

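En2 and Cnpy1 were followed over 3 tissues of the rat embryo. They are 2 of the 14217 genes that the arrays report through a probe set with a single gene symbol, and each had 1 probe set of the 31099 on the array. The pair was chosen by its signal on these same arrays, namely its large difference between ureteric bud and Wolffian duct, so their levels in the bud are given as a description with no test. Embryos of Sprague-Dawley rats at embryonic day 13 gave the total RNA, which was hybridised to 9 single-colour Affymetrix arrays, 3 for each tissue. The first tissue was the ureteric bud (UB), the outgrowth that branches into the collecting ducts, freed from the embryonic kidney with light trypsin and pooled at about 100 buds an array. Another was the Wolffian duct with adhering mesodermal cells (called WD with mesoderm here and WD+IM in the labels), pooled at about 50 ducts an array. The last was the Wolffian duct alone (WD), the tube from which the bud grows, pooled at about 100 ducts an array. Ducts were dissected without treatment, so that digestion and tissue cannot be told apart, and the labels call the 3 pools of a tissue biological replicates.

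En2 encodes engrailed 2, a homeodomain transcription factor that mostly represses its targets and is best known from the boundary between midbrain and hindbrain, where it acts beside Pax2, Wnt1 and Fgf8. Cnpy1 encodes a member of the canopy family, small proteins with a saposin-like fold that reside in the endoplasmic reticulum. In zebrafish, Cnpy1 is needed for FGF signalling at the same brain boundary, where it acts on an FGF receptor. In the ureteric bud, GDNF signalling through RET and FGF signalling through FGFR2 drive branching, and ETS factors and Sprouty proteins are common outputs of both.

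The genes are direct neighbours on rat chromosome 4 in the GRCr8 gene table, with 0 annotated genes between them. RefSeq's promoter table for GRCr8 held both, with En2 on the minus and Cnpy1 on the plus strand. Their start sites lie 44624 bases apart in that table, and the genes are transcribed towards each other. The windows from 250 bases before to 50 after each start site are printed because the pair was high in the same tissue and because the base composition of both windows is alike. The En2 window is chr4:7960744-7961043 on the minus strand and the Cnpy1 window is chr4:7915919-7916218 on the plus strand, both written 5′ to 3′ in the direction of transcription. Capitals mark matches to the motifs searched.
En2: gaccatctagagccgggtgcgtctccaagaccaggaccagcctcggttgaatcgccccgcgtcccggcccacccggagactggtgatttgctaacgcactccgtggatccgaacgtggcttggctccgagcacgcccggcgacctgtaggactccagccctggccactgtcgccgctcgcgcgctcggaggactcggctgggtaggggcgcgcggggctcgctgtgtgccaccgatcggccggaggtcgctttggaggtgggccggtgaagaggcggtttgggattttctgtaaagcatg
Cnpy1: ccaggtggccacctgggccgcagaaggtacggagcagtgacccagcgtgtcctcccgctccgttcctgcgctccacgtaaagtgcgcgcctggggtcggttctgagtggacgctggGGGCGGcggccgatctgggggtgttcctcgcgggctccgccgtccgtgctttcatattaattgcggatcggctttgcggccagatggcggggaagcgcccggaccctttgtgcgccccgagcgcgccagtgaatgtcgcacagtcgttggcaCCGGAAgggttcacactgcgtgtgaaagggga
The G and C share was 67% in the En2 window and 66.7% in the Cnpy1 window, against a median of 51.7% over 33465 rat promoter windows of 300 bases. CpG dinucleotides occurred at 0.984 of the number the base composition gives in En2 and at 1 in Cnpy1, against a median of 0.392, which puts the windows at percentiles 93.8 and 94.6. Of 6 motifs searched on both strands, the Cnpy1 window held 1 ETS core CCGGAA, starting at base 19 after the start site, and 1 GC box GGGCGG, starting at base -134. The ETS core is in 15% and the GC box in 33.1% of all windows, and no motif match in Cnpy1 overlapped another. The En2 window held no match to either, and neither window held TAATTA (5.36% of all windows), GCGTGAC (2%), TATAAA (14.2%) or CCAAT (37.5%). A match is a string of letters and not a bound site, and no match says only that these letters are not in the window.

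After the authors' scaling, which gave every array the same trimmed mean, median signals ran from 534 to 897 intensity units. Arrays of 1 tissue correlated at r = 0.932 to 0.978 across the 20330 probe sets that were tested, and arrays of different tissues at 0.827 to 0.919, and 0 pairs of arrays held identical values. Of 10 duct epithelial marker genes such as Cdh1 and Epcam, the summed signal was 204993 to 219740 units in UB, 61366 to 95685 units in WD with mesoderm and 219416 to 239482 units in WD. Of 8 mesenchymal markers such as Col1a1, it was 6283 to 9422 units in UB, 235077 to 258804 units in WD with mesoderm and 122752 to 146635 units in WD, so the tissue labelled as WD alone also carried these transcripts. Spiked bioC over bioB controls had a signal ratio of 2.87 to 2.99 on 4 arrays, all 3 of UB and replicate 3 of WD with mesoderm, while the remaining 5 arrays had ratios of 1.02 to 1.23. These 2 sets, above and below a ratio of 2, are called the spike sets. UB and WD share no spike set, so spike set and tissue cannot be told apart in UB against WD. A spike set term in a fit rests on WD with mesoderm alone, replicate 3 against replicates 1 and 2. Calls lost with that term are to be read with this limit. The 3' over 5' signal ratio of beta-actin, a sign of RNA quality, was 1.48 to 2.30 in UB, 1.47 to 1.92 in WD with mesoderm and 2.19 to 4.87 in WD, so that it did not overlap between the 2 duct tissues. Its log2 value is the beta-actin covariate named below. A gene or probe set is called below when limma's p-value, adjusted by Benjamini-Hochberg over all 20330 probe sets, is under 0.05. Of all probe sets tested in UB against WD, 11.3% were called higher and 18.6% lower, a split that follows the scaling. It was 2297 higher and 3776 lower as deposited, 2515 higher and 2433 lower with quantile normalization and 5843 higher and 1530 lower with median centring, where the median of all differences was -0.12, 0.04 and 0.34. For UB against WD with mesoderm, 2228 were higher and 2948 lower as deposited and 4610 and 1792 with median centring, with medians of -0.05 and 0.32. For WD with mesoderm against WD, 1142 were higher and 1436 lower as deposited and 1244 and 921 with median centring, with medians of -0.04 and 0.06.

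En2 was among the brightest probe sets in the bud, at or above the array median in WD and below it in WD with mesoderm. Its signal was 41209, 38954 and 36740 units on the 3 UB arrays, 359, 85.6 and 316 units on the 3 arrays of WD with mesoderm, and 1281, 778 and 1541 units on the 3 WD arrays. The 3 tissues did not overlap, and the lowest UB array stood 23.8 times above the highest WD array and 102 times above the highest array of WD with mesoderm. The UB arrays were also tight, at 38968 ± 2234 units (SD, n = 3), a spread of 5.73% of the mean. In WD with mesoderm the mean was 254 ± 147 units (SD, n = 3) and in WD it was 1200.0 ± 387 units (SD, n = 3). Among the 31042 non-control probe sets of an array, En2 stood at percentiles 98.7 to 98.8 in UB, 14.2 to 39.3 in WD with mesoderm and 50.0 to 61.6 in WD.

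Cnpy1 followed the same order of tissues at the level of the means, with less certainty at the low end. Its signal was 6744, 5642 and 6424 units on the 3 UB arrays, 49.4, 55.6 and 42.0 units on the 3 arrays of WD with mesoderm, and 274, 379.7 and 44.2 units on the 3 WD arrays. UB stood apart from both ducts, while WD replicate 3 fell within the range of WD with mesoderm and the other 2 WD arrays lay above it. The lowest of these signals lie near the 10th percentile of all values, 46 units, and 2 of the 9 arrays were below it. The mean was 6270 ± 567 units in UB, 49.0 ± 6.82 units in WD with mesoderm and 232 ± 171 units in WD (SD, n = 3 each). In rank, Cnpy1 stood at percentiles 84.7 to 87.2 in UB, 7.64 to 11.6 in WD with mesoderm and 4.81 to 35.1 in WD.

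**Figure D1:**
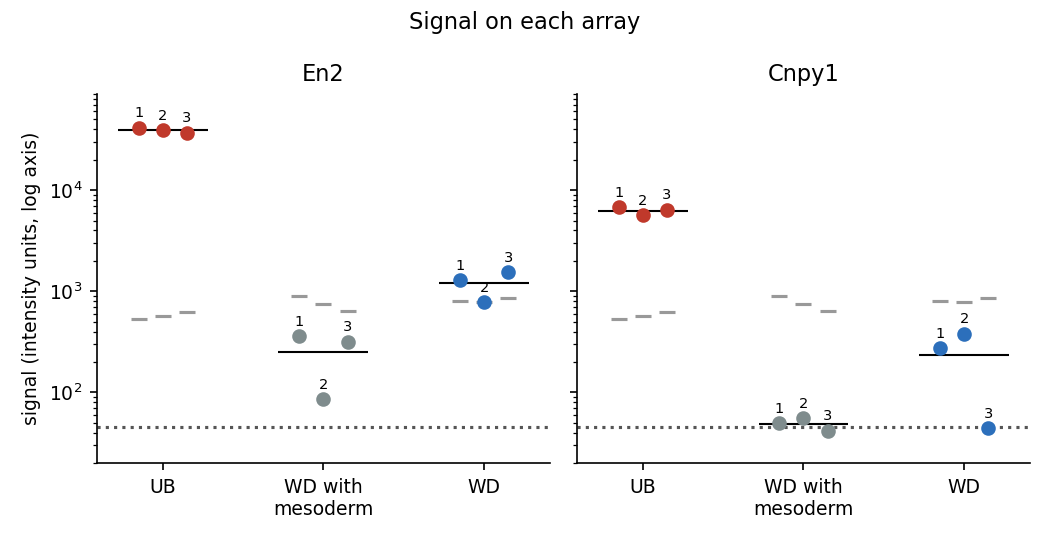
Signal of En2 (left) and Cnpy1 (right) on each array, in intensity units on a log axis, for UB, WD with mesoderm and WD (numbers are replicates, black lines are means of 3 arrays, grey dashes the median signal of each array, the dotted line 46 units). The UB arrays lie above all others for both genes, and Cnpy1 in WD replicate 3, at 44.2 units, lies among the arrays of WD with mesoderm.

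The differences are given on the scale of log2(intensity + 46), which understates the change of a gene that is near 46 units in one tissue. UB minus WD was 5.02 ± 0.37 for En2 and 4.77 ± 0.49 for Cnpy1 (SE, from a fit of all 9 arrays), places 2 and 3 among 10800 genes tested, after Wnt11. UB minus WD with mesoderm was 7.18 ± 0.37 for En2 and 6.05 ± 0.49 for Cnpy1, places 1 and 2 among the genes tested. These places restate what the genes were chosen for, and the comparisons share the UB arrays. En2 passed the filter on low values on 6 arrays, 3 of UB and 3 of WD, and Cnpy1 only on the 3 UB arrays. WD with mesoderm replicate 3, the array whose spike ratio was like that of UB, had En2 at 316 units and Cnpy1 at 42.0 units. Set against this array alone, UB minus WD with mesoderm was 6.75 for En2 and 6.16 for Cnpy1. With the spike set as a term in the fit, UB minus WD was 4.37 ± 0.66 for En2 and 4.93 ± 0.92 for Cnpy1. That term rests on the arrays of WD with mesoderm alone, so it cannot separate spike set from tissue in UB against WD.

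Relative to the bud, both genes left little signal in the ducts. The mean in WD with mesoderm was 0.651% of that in UB for En2 and 0.781% for Cnpy1, and the mean in WD was 3.08% for En2 and 3.71% for Cnpy1. The 5 genes listed as bud tip markers ran over a wide range. Ret, the GDNF receptor kinase, had 4.29% of its UB mean in WD with mesoderm and 16.1% in WD, and its co-receptor Gfra1 had 13.03% and 38.3%. Wnt11, a Wnt ligand of bud tips, had 11.4% in WD with mesoderm and 0.648% in WD, an order opposite to that of the En2 and Cnpy1 means. For Cnpy1 the arrays of the duct tissues overlapped. Etv4 had 7.15% and 6.98%, and Etv5 12.7% and 6.05%, in WD with mesoderm and in WD, so that Etv5 had the order of Wnt11. Each share rests on 1 probe set whose background is unknown, and for Cnpy1 and Wnt11 in their weakest tissue it cannot be told from background.

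The comparison of WD with mesoderm against WD asks what attached mesoderm changes, and it is the one comparison here for which the genes were not chosen, although it shares the WD arrays with UB against WD. En2 was lower in WD with mesoderm, by -2.16 ± 0.37 on the log2 scale (adjusted p = 0.0023, limma), lower on all 3 arrays than on any WD array. Of all probe sets tested, 7.06% were called lower and 5.62% higher in this comparison. For Cnpy1 the difference was -1.28 ± 0.49, and it was -1.96 without WD replicate 3 and -0.41 at its smallest under the alternative settings. Cnpy1 lay below the filter level on all 6 duct arrays and was tested only because it was high in UB, so no call is read from this difference. The beta-actin ratio differed between these tissues, as given above, and with its covariate the En2 difference was -2.36 ± 0.56 (adjusted p = 0.0391, limma). Duct epithelial markers moved with En2. Of 10 such genes, 10 were called lower in WD with mesoderm and 0 higher, with a median of -1.65 and a range from -2.02 to -1.05. Pax2, a paired-domain transcription factor of the duct epithelium, was lower by -1.82 ± 0.21 and Cdh1, the epithelial cadherin, by -1.69 ± 0.16. Of 5 endothelial markers tested, 5 were called higher in WD with mesoderm, and their summed signal was 29683 to 30165 units in WD with mesoderm and 1852 to 3648 units in WD. In such pools fewer cells of a type and less RNA per cell cannot be told apart, and the part of these markers' cells in the lower En2 signal was not tested.

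**Figure D2:**
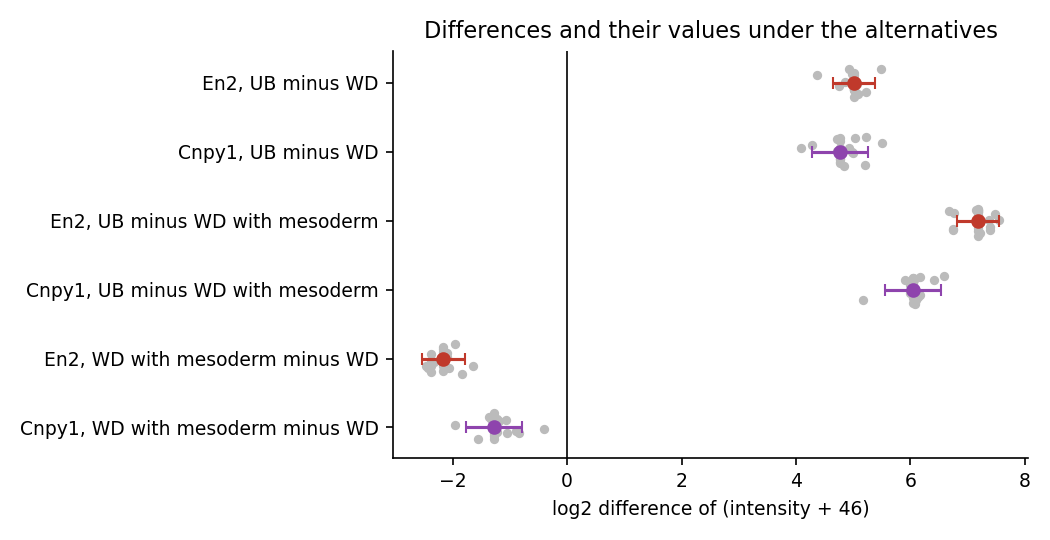
Differences of En2 (red) and Cnpy1 (purple) in log2(intensity + 46) for the 3 comparisons, with the fit of all 9 arrays as large points and its SE as bars, and the same difference under each alternative setting as grey points (vertical scatter has no meaning). All UB differences stay above 4, and En2 in WD with mesoderm against WD stays between -2.46 and -1.65.

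Which genes had profiles most like the pair was asked by the root mean square difference between log2 profiles over the 9 arrays, each centred on its own mean, among 10720 other genes. Since the pair was chosen for its step between UB and the ducts, a step that enters these distances, the nearness of En2 and Cnpy1 to each other restates that choice. Cnpy1 was the nearest of all to En2, at 1.02, where the median gene stood at 3.07. From the side of Cnpy1, En2 took place 3, after Kcna2 (0.945), a potassium channel subunit, and the chemokine Cxcl14 (0.986), where the median gene stood at 2.69. The other genes nearest to En2 were Ret (1.31), the actin-severing protein Scin (1.42), Marchf11 (1.42), Kcna2 (1.48), Etv4 (1.49), the growth cone protein Gap43 (1.51) and the calcium binder Calb1 (1.52). Those nearest to Cnpy1 after En2 were Etv4 (1.03), Gap43 (1.11), Ret (1.13), Marchf11 (1.16) and Lratd1 (1.22). Kcna2 had 4307 ± 1244 units in UB, 112 ± 118 units in WD with mesoderm and 566 ± 325 units in WD (SD, n = 3 each). Ret had 45203 ± 5510 units in UB, 1937 ± 567 units in WD with mesoderm and 7298 ± 917 units in WD (SD, n = 3 each). On 4 of the 6 duct arrays the Cnpy1 signal lay too close to 46 units for an order over arrays to be set beside that of En2.

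**Figure D3:**
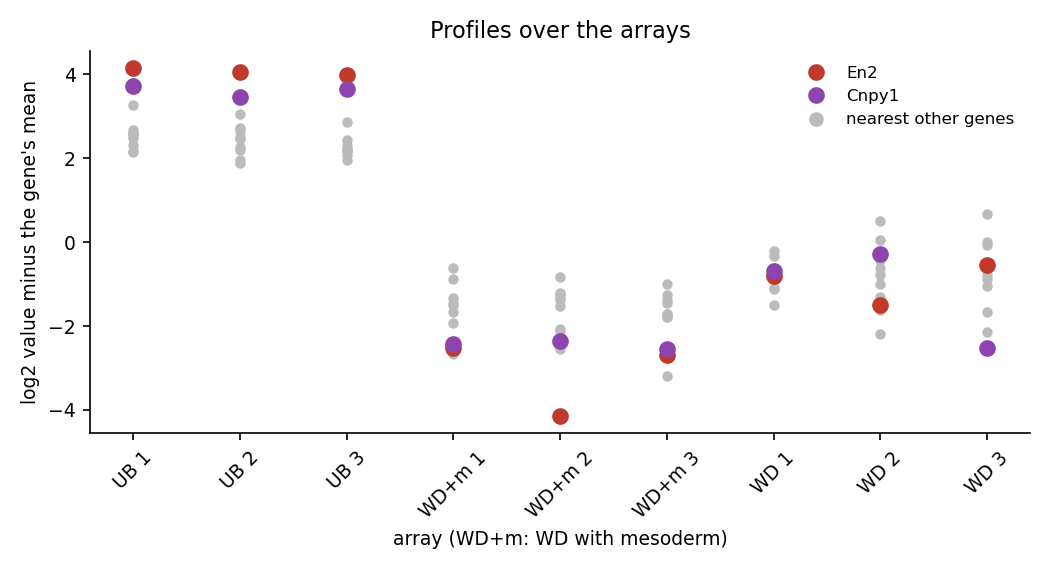
Log2(intensity + 46) of En2 (red), Cnpy1 (purple) and the other genes nearest to either (grey) on each of the 9 arrays, each minus the gene's mean over the arrays. All lie above their mean in UB, and En2 and Cnpy1 have the highest points there.

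None of the tested genes around the pair differed by as much. The pair was chosen for its large difference between bud and duct, so its lead over its neighbours restates that choice. The 10 protein-coding genes on either side were taken from the order of the GRCr8 gene table. Of these 20 genes, 15 had a probe set and 14 were tested. In UB against WD 1 was called higher and 4 lower, with a median of -0.02, beside the 11.3% higher and 18.6% lower of all probe sets. In UB against WD with mesoderm 2 were called higher and 1 lower, with a median of -0.01, where 11% of all probe sets were higher and 14.5% lower. In WD with mesoderm against WD 1 was called higher (Insig1, a call lost under 9 alternatives, 5 of them single arrays left out, with adjusted p up to 0.436) and 0 lower by limma, and 3 of the 14 had an unadjusted p under 0.05.

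Insig1, next to En2 and a regulator of sterol synthesis, was called higher in UB, at 7636 ± 618 units against 3055 ± 476 units in WD (SD, n = 3 each), a difference of 1.32 ± 0.18 (adjusted p = 2.91e-04, limma). Its mean in WD with mesoderm was 4903 ± 1076 units (SD, n = 3), from which UB differed by 0.65 ± 0.18 (adjusted p = 0.0195, limma). That call was lost without UB replicate 3 (adjusted p = 0.074) and without WD with mesoderm replicate 3 (adjusted p = 0.0676). Rbm33, next to Cnpy1 on the other side, had 6243 ± 341 units in UB, 4721 ± 961 units in WD with mesoderm and 5520 ± 1353 units in WD (SD, n = 3 each), and its UB minus WD difference of 0.20 ± 0.19 did not pass (adjusted p = 0.448, limma). With median centring, Rbm33 differed by 0.66 (adjusted p = 0.0369). Shh, the hedgehog ligand beyond Rbm33, lay below the filter, at 26.2 ± 7.43 units in UB, 48.5 ± 33.4 units in WD with mesoderm and 46.1 ± 6.01 units in WD (SD, n = 3 each), with no order to be read at these signals. The neighbours lower in UB than in WD were Dpp6 (-1.65 ± 0.26), a potassium channel accessory protein, the serotonin receptor Htr5a (-1.19 ± 0.37), the histone methyltransferase Kmt2c (-0.76 ± 0.23) and the chaperone Dnajb6 (-0.48 ± 0.13). All 4 of these calls were lost with the spike set as a term, at adjusted p = 0.19 for Dpp6, 0.923 for Htr5a, 0.454 for Kmt2c and 0.485 for Dnajb6. With median centring the calls were also lost for Htr5a (adjusted p = 0.116), Kmt2c (0.388) and Dnajb6 (0.941). Each of these last genes also lost its call with some single arrays left out. Paxip1, a DNA repair adaptor, was called higher in UB than in WD with mesoderm by 0.58 ± 0.13 (adjusted p = 0.00727, limma).

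**Figure D4:**
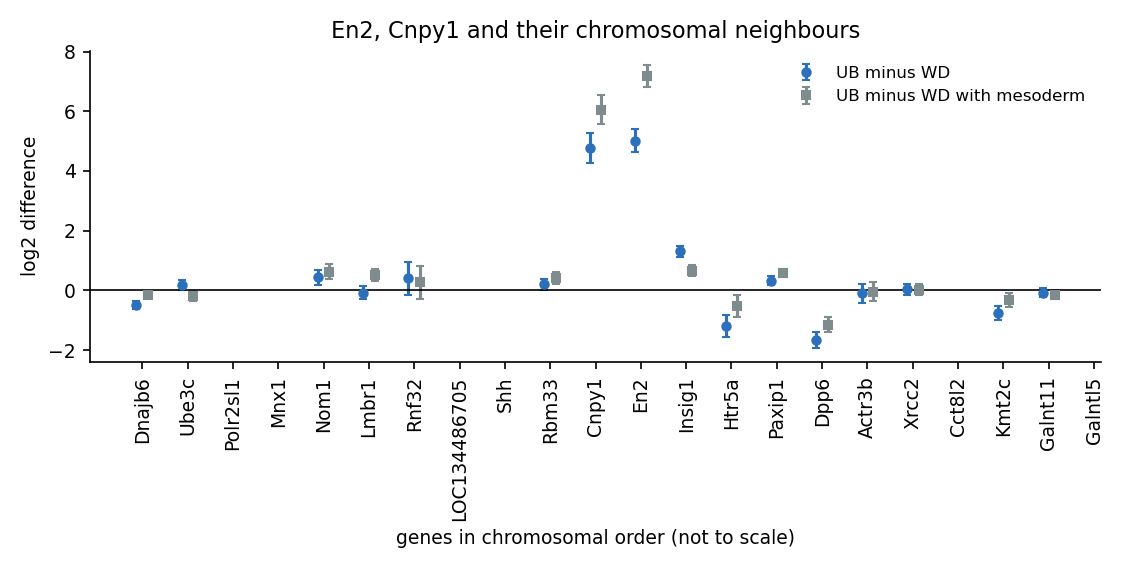
Log2 difference of UB minus WD (blue circles) and UB minus WD with mesoderm (grey squares) with SE bars for En2, Cnpy1 and the genes around them in chromosomal order. Genes with no point had no probe set or lay below the filter, and all neighbours lie between -1.65 and 1.32 while the pair lies above 4.

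The relatives that could be read were not called. En1, the engrailed paralogue, had no probe set with a single symbol and was not analysed here. Of the canopy family, Cnpy2, Cnpy3 and Cnpy4 were tested, and 0 of 3 were called in any of the 3 comparisons by limma. At an unadjusted p under 0.05 there were 0, 0 and 1 in UB against WD, UB against WD with mesoderm and WD with mesoderm against WD. Of all probe sets, 29.9%, 25.5% and 12.7% were called there, so 0 of 3 genes says little about the family. Cnpy2, which acts in the endoplasmic reticulum, had 19865 ± 1277 units in UB, 20688 ± 2164 units in WD with mesoderm and 16613 ± 2597 units in WD (SD, n = 3 each). UB minus WD was 0.27 ± 0.14 for Cnpy2, -0.16 ± 0.16 for Cnpy3, a chaperone of Toll-like receptors, and -0.04 ± 0.18 for Cnpy4. With median centring, which moves all genes towards UB, Cnpy2 was called at 0.73 ± 0.22 (adjusted p = 0.015).

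The partners of En2 at the brain boundary ranged from Pax2 and Pax8, far above the median signal of the arrays, to genes below the filter. Of 12 genes of that boundary, 8 had a probe set and 4 were tested. Fgf8, the ligand of the boundary, lay below the filter, at 176 ± 73.3 units in UB, 116 ± 47.6 units in WD with mesoderm and 180.4 ± 129 units in WD (SD, n = 3 each), and so did Fgf17, Gbx2 and Otx2. Pax2 was high in both epithelia, at 10873 ± 3183 units in UB and 8810 ± 2075 units in WD (SD, n = 3 each), a difference of 0.29 ± 0.21 that did not pass (adjusted p = 0.314, limma) but did with median centring (adjusted p = 0.0233). Pax8, its relative, was lower in UB than in WD by -1.004 ± 0.16, a call lost with the spike set as a term (adjusted p = 0.118) and with median centring (adjusted p = 0.0597). Wnt1 (-0.99 ± 0.50) and Fgf18 (0.66 ± 0.24) were not called in UB against WD. Wnt1 was called with the beta-actin covariate (adjusted p = 0.0369), and Fgf18 was called with median centring (adjusted p = 0.00487) and with quantile normalization (adjusted p = 0.0374). Of these 4 genes, 0 were called higher and 1 lower in UB against WD, beside 11.3% and 18.6% of all probe sets. Their median was -0.35 against -0.12 over all probe sets, and 2 had an unadjusted p under 0.05. In UB against WD with mesoderm 2 were called higher (Pax2 and Pax8) and 0 lower, beside 11% and 14.5%. The same genes were the 2 called lower in WD with mesoderm than in WD, with 0 higher, beside 7.06% lower and 5.62% higher of all probe sets. Pax2 is also one of the 10 duct epithelial markers.

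FGF receptors and the feedback genes downstream of them went both ways, with the ETS factors and Sprouty genes among those higher in the bud. Of 17 genes listed, 14 had a probe set and all 14 were tested. The list was drawn up knowing that Etv4 and Etv5 were high in UB, so its direction is no independent evidence. In UB against WD 8 were called higher and 4 lower, beside 11.3% and 18.6% of all probe sets, with a median of 1.29 against -0.12 over all probe sets. Against WD with mesoderm, 8 were called higher and 4 lower in UB, beside 11% and 14.5%, with a median of 1.32 against -0.05. In WD with mesoderm against WD 5 were called higher and 3 lower, beside 5.62% and 7.06%, with a median of 0.29 against -0.04. These 8 calls became 2 with the beta-actin covariate, 5 with the spike set as a term, 5 with median centring and 3 without WD with mesoderm replicate 2, and 5 without WD replicate 1, WD replicate 2 or WD with mesoderm replicate 3. The ETS factors Etv5 (4.01 ± 0.27), Etv4 (3.81 ± 0.27) and Etv1 (3.31 ± 0.16) were higher in UB than in WD. Etv4 had 15498, 16266 and 14033 units on the UB arrays, 1659, 859.7 and 754 units on those of WD with mesoderm and 1160, 1256 and 779 units on those of WD. Like En2 and Cnpy1 it did not overlap between bud and ducts, and its 2 duct tissues overlapped, as those of Cnpy1 did and those of En2 did not. Spry1, an inhibitor of receptor tyrosine kinase signalling, was higher by 2.44 ± 0.18, at 32982 ± 3789 units in UB, 7235 ± 423 units in WD with mesoderm and 6175 ± 1640 units in WD (SD, n = 3 each). With the spike set as a term, Spry2 lost its calls against WD (adjusted p = 0.59) and against WD with mesoderm (adjusted p = 0.157).

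Of the 4 FGF receptor kinases in that list, 0 were called higher and 3 lower in UB than in WD. Among all probe sets, 11.3% were called higher and 18.6% lower. The 3 were Fgfr1, Fgfr2 and Fgfr3, the last at -1.82 ± 0.24 (adjusted p = 1.94e-04, limma, and 0.0753 with the spike set as a term). Fgfrl1, a receptor without a kinase domain, was called higher by 0.58 ± 0.20 (adjusted p = 0.0468, limma), a call lost with the spike set as a term (adjusted p = 0.625) and with most single arrays left out. Fgfr1, whose product Cnpy1 acts on in zebrafish, had 4225 ± 318 units in UB, 8547 ± 733 units in WD with mesoderm and 5980 ± 143 units in WD (SD, n = 3 each). UB minus WD was -0.50 ± 0.13 for Fgfr1 (adjusted p = 0.0142, limma), a call lost with the spike set as a term (adjusted p = 0.512), with a beta-actin covariate (adjusted p = 0.106), with median centring (adjusted p = 0.898) and without UB replicate 1 (adjusted p = 0.0726). UB minus WD with mesoderm was -1.01 ± 0.13 for Fgfr1. Fgfr2, the main FGF receptor of the duct epithelium, had 17892 ± 2285 units in UB, 15756 ± 558 units in WD with mesoderm and 35966 ± 3630 units in WD (SD, n = 3 each). Its UB minus WD difference was -1.01 ± 0.13 (adjusted p = 1.48e-04, limma; 0.0506 with median centring). Fgfr4 was the receptor with the order of tissues of En2, at 2568 ± 436 units in UB, 308 ± 229 units in WD with mesoderm and 1327 ± 307 units in WD (SD, n = 3 each). It was called higher in UB than in WD with mesoderm (3.11 ± 0.43) and not in UB against WD (0.94 ± 0.43, adjusted p = 0.117, limma; 0.0163 with median centring). Flrt3, a membrane protein that binds FGF receptors, was lower in UB than in WD by -2.75 ± 0.14 and than in WD with mesoderm by -3.31 ± 0.14.

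**Figure D5:**
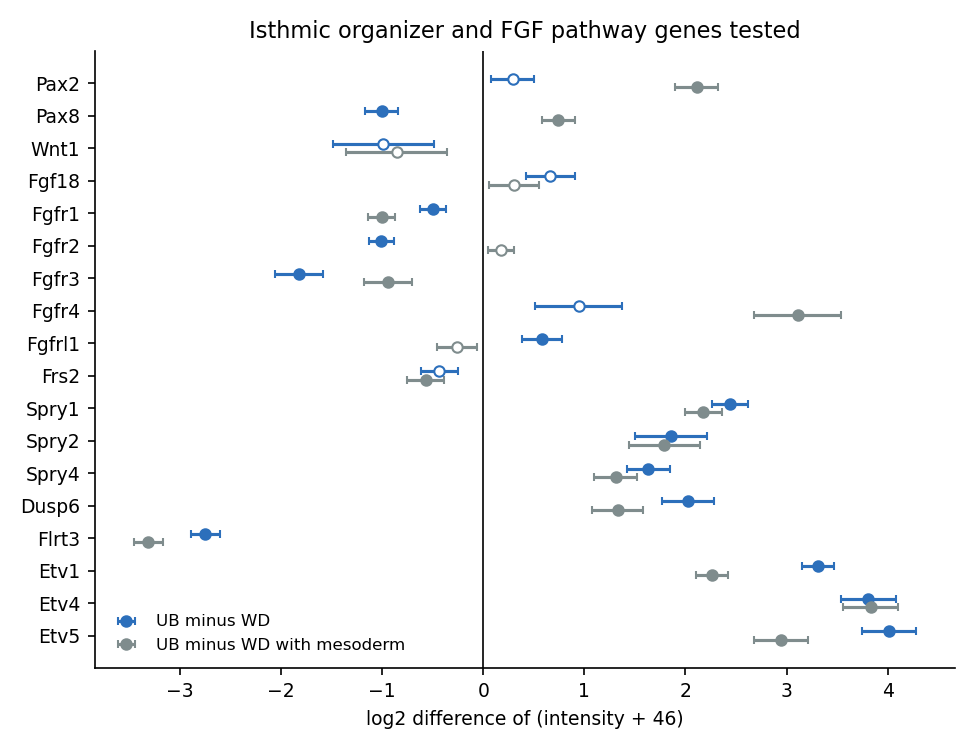
Log2 difference of UB minus WD (blue) and UB minus WD with mesoderm (grey) with SE bars for the tested genes of the brain boundary and of the FGF pathway, filled where called. Etv1, Etv4, Etv5 and the Sprouty genes lie right of 0, and Fgfr1, Fgfr3 and Flrt3 lie left of it in both comparisons.

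Engrailed proteins act with cofactors, the TALE homeodomain proteins and the Groucho family of corepressors. Of 11 listed, 10 were tested, and 0 were called higher and 5 lower in UB than in WD by limma, 7 having an unadjusted p under 0.05, with a median of -0.65 against -0.12 over all probe sets, of which 11.3% were called higher and 18.6% lower. The 5 calls became 2 with the spike set as a term. In UB against WD with mesoderm 1 was called higher (Tle5, a call lost with the spike set as a term at adjusted p = 0.289) and 4 lower, beside 11% and 14.5% of all probe sets, and in WD with mesoderm against WD 4 higher and 0 lower, beside 5.62% and 7.06%. Meis1 had 2792 ± 719 units in UB, 48618 ± 2286 units in WD with mesoderm and 24307 ± 2207 units in WD (SD, n = 3 each). Meis2 (-1.67 ± 0.19) and Pbx3 (-1.21 ± 0.15) were also lower in UB than in WD, and the call for Pbx3 was lost with the spike set as a term (adjusted p = 0.0802). The corepressor Tle1 was lower by -0.80 ± 0.14, a call lost with the spike set as a term (adjusted p = 0.106) and with median centring (adjusted p = 0.249). Tle4 had 6946 ± 688 units in UB, 6908 ± 653 units in WD with mesoderm and 6658 ± 817 units in WD (SD, n = 3 each), and UB minus WD was 0.06 ± 0.15 (adjusted p = 0.771, limma). Meis1 is also one of the 8 mesenchymal markers, all 8 of which were called lower in UB than in WD, and the part of mesenchymal cells in these falls was not tested.

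Since En2 is best known from neural tissue, 16 neural markers were read beside it. Of these, 13 had a probe set and 6 were tested, and in UB against WD 2 were called higher (Gap43 and Elavl4) and 2 lower (Dcx and Stmn2), beside 11.3% and 18.6% of all probe sets. The summed signal of the 13 was 14062 to 16193 units in UB, 7584 to 7867 units in WD with mesoderm and 9443 to 11370 units in WD. No marker was listed at 0. The higher sum in UB lay in Gap43, at 8398 ± 1417 units in UB, 562 ± 115 units in WD with mesoderm and 907 ± 153 units in WD (SD, n = 3 each), and Gap43 is among the genes nearest to the pair. Elavl4, a neuronal RNA-binding protein, had 1593 ± 490 units in UB, 730.3 ± 314 units in WD with mesoderm and 674 ± 191 units in WD (SD, n = 3 each), and was called higher in UB than in either duct tissue (adjusted p = 0.0295 against WD with mesoderm and 0.0215 against WD, limma). With the beta-actin covariate the UB against WD calls were lost for Elavl4 (adjusted p = 0.386), Dcx (0.222) and Stmn2 (0.623), and each was also lost with some single arrays left out, as was that of Elavl4 against WD with mesoderm. The synaptic protein Snap25 had 14.04 ± 2.56 units in UB, 87.2 ± 39.05 units in WD with mesoderm and 30.1 ± 12.4 units in WD, and the neural progenitor factor Sox2 had 32.8 ± 24.5 units in UB, 252 ± 216 units in WD with mesoderm and 210.1 ± 13.8 units in WD (SD, n = 3 each). Both lay below the filter, as did Tubb3, Nefl, Syt1, Neurod1 and Sox10, and no order of tissues is read from them. The 10th percentile of an array was 26.9 to 35.4 units in the spike set that holds the UB arrays. It was 55.8 to 77.2 units in the other spike set. Stmn2, a neuronal microtubule regulator, was lower in UB than in WD with mesoderm by -2.80 ± 0.42 (adjusted p = 3.54e-04, limma).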

How the data were processed

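The authors' deposited table gives a linear signal intensity for 31099 probe sets on 9 arrays. GCOS is the software named per the submitters' processing notes, and the summary algorithm is not given in the sources used here. All arrays share a 2% trimmed mean of 2501 units, and no detection calls were used. Names came from the platform table, updated by Entrez ID (20826 had 1 symbol, 20758 of them matched), with the probe set of highest mean standing for a gene.

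Values were analysed as log2(intensity + 46), 46 being the 10th percentile, for the 20330 probe sets above the 40th percentile on at least 3 arrays. With limma 3.58.1 in R 4.3.3, a model of group alone was fitted to all 9 arrays, with a mean-variance trend. The procedure was tested on simulated data, drawn as independent normal values. They held no effect of spike set, scaling or RNA quality, so that test does not bear on these. Genes named include En2 and Cnpy1, their family and neighbours, the 8 nearest profiles to each, and from each list up to 4 called members with the smallest p in a comparison. Others were named outside that rule, among them Fgf8, Wnt1, Fgf18, Tle4 and several cell type markers. Some of these were not called or not tested. The genes, lists and settings were chosen with earlier results of these data known. Same-numbered replicates did not deviate together in every pair (r from -0.35 to 0.28), and their number was not used as a block. The number of arrays limits the precision, and p-values measure the spread between pools.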

Additional observations from a re-analysis of the deposited data

How the results depend on the processing

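En2 was called lower in WD with mesoderm than in WD under all 23 alternatives, with an adjusted p of 0.000814 to 0.0391 and, leaving out each array, a difference of -2.46 to -1.65. For Cnpy1, below the filter level on all duct arrays, that difference was -1.96 (without WD replicate 3) to -0.84 leaving out each array. Over all 23 alternatives it was -0.41 at its smallest, and no call is read from it. En2, UB minus WD, was 5.48 after median centring, 4.37 when the spike set was a term, and 4.75 to 5.22 leaving out each array. Cnpy1, UB minus WD with mesoderm, was 6.42 with median centring, 6.60 with a pseudocount of 16, 5.17 with the larger pseudocount tried and 5.91 with the beta-actin covariate, so its size follows the pseudocount. No sign was reversed. The fixed lists with the neighbours held 23 called genes in UB against WD, beside 29.9% of all probe sets. With the spike set as a term they held 11, beside 3.93% of all probe sets. Their tested genes were 4 of the brain boundary, 14 of the FGF list, 10 cofactors, 3 of the canopy family and 14 neighbours. In WD with mesoderm against WD the lists held 15, beside 12.7% of all probe sets, and 7 with the beta-actin covariate, beside 4.06%. Leaving out each array gave 8 to 15, lowest without WD with mesoderm replicate 2, where 9.46% of all probe sets were called. Over all probe sets UB against WD gave 6073 calls, 798 under the spike set term, 3276 when beta-actin was a covariate and 3743 without UB replicate 1. UB against WD with mesoderm gave 5176, and 2414 with the spike set as a term. WD with mesoderm against WD gave 2578, and 826 with the beta-actin covariate. The cause of these shifts was not tested. With the replicate block, En2 in WD with mesoderm against WD had an adjusted p of 0.00129, and the differences were the same. Each gene has 1 probe set, so a mean over probe sets was not run. Without background measures, signals near 46 units cannot be told from 0.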
